A study of Mus musculus with 6 samples.

Results

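Surfactant and lung secretory genes were followed in whole lung buds of mouse embryos at E11.5, the stage at which the buds begin to branch. The genes were Sftpc, Sftpa1, Sftpb, Sftpd, Abca3, Lamp3, Cxcl15, Scgb1a1, Scgb3a2 and Cpm, 10 of the 19938 genes measured. They were chosen by their known roles in surfactant, in lamellar bodies and in airway secretion and with the DKO and control expression values of these arrays in view, so their differences are described here without a test. Each was read from 1 probe set that the platform annotation assigns to that gene alone, and no further probe set of any of them was available. There were 3 DKO samples, of genotype Shhcre:Hdac1fl/fl; Hdac2 fl/fl, and 3 control samples, of genotype Shhcre, all on a mixed background of C57BL/6 and 129X1,129S1. Both groups therefore carried the Cre allele, which is expressed from the Sonic hedgehog locus, a gene active in the lung epithelium. The unit throughout is the deposited log2 expression value, and a difference is the DKO mean minus the control mean, with the standard error (SE) from limma where one is given. The labels call the samples biological replicates and do not say whether each was 1 embryo or a pool.

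Pulmonary surfactant is a film of phospholipid and protein that keeps the air spaces open. Type 2 cells of the alveoli make its lipids and proteins, store them in lamellar bodies, which are organelles related to lysosomes, and secrete them into the lumen. The hydrophobic surfactant proteins B and C act in the film, while surfactant proteins A and D are collectins that bind microbes. Secretoglobins are small proteins secreted by club cells of the airway. Sftpc is transcribed in the distal bud tips from early lung development, well before surfactant is made, whereas most of the other genes are known for their expression in the late fetal and postnatal lung. HDAC1 and HDAC2 are histone deacetylases that act within repressor complexes.

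The arrays correlated at r of 0.995 to 0.999 over all genes, which are not independent replicates, and the SD of gene deviations from the group mean was 0.0705 to 0.105 on DKO arrays and 0.0596 to 0.0645 on control arrays. Of the targeted genes, Hdac1 fell slightly in DKO buds, with values of 11.20, 11.23 and 11.23 in DKO against 11.48, 11.49 and 11.52 in control. Its difference was -0.28 (SE 0.05, adjusted p = 0.0193), a call lost on leaving out DKO 1, DKO 3 or any control array (adjusted p = 0.0517 to 0.112) and with replicate number as a block (0.0507). Hdac2 had values of 11.74, 11.77 and 11.70 in DKO against 11.83, 11.69 and 11.81 in control, and did not pass (difference -0.04, SE 0.06, adjusted p = 0.845). The position of these probe sets relative to the deleted exons is unknown here. As a check for epithelial signal, none of the 24 measured epithelial markers (0 of 24) lay below the 95th percentile of 1194 olfactory and vomeronasal receptor genes. Probe sets of these receptors served as a gauge of low signal. That percentile was 6.95 and the median of these receptors was 5.16. Smooth muscle, endothelial and erythroid markers also had 0 genes below that percentile, so this check does not tell lung from other tissue.

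The surfactant and secretory genes did not move as a block. Sftpc was more than 5-fold lower in DKO buds, Cxcl15, Sftpa1 and Cpm were higher, and the other 6 genes differed by no more than 0.12 in size. Past an adjusted p under 0.05 were 3 genes higher in DKO, where 1.03% of all genes were, and 1 gene lower, where 1.38% were (2.41% in both directions). DKO and control values did not overlap for 4 genes higher in DKO (8.36% of all genes) and 1 gene lower (10.4% of all genes; 18.8% in both directions). The contrast was used in choosing the genes, so these shares are printed as background only. The median difference was 0.06 over the 10 genes and 0.00 over all genes. Buds were measured whole, and in such samples fewer cells of a type and less RNA per cell cannot be told apart.

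**Figure D1:**
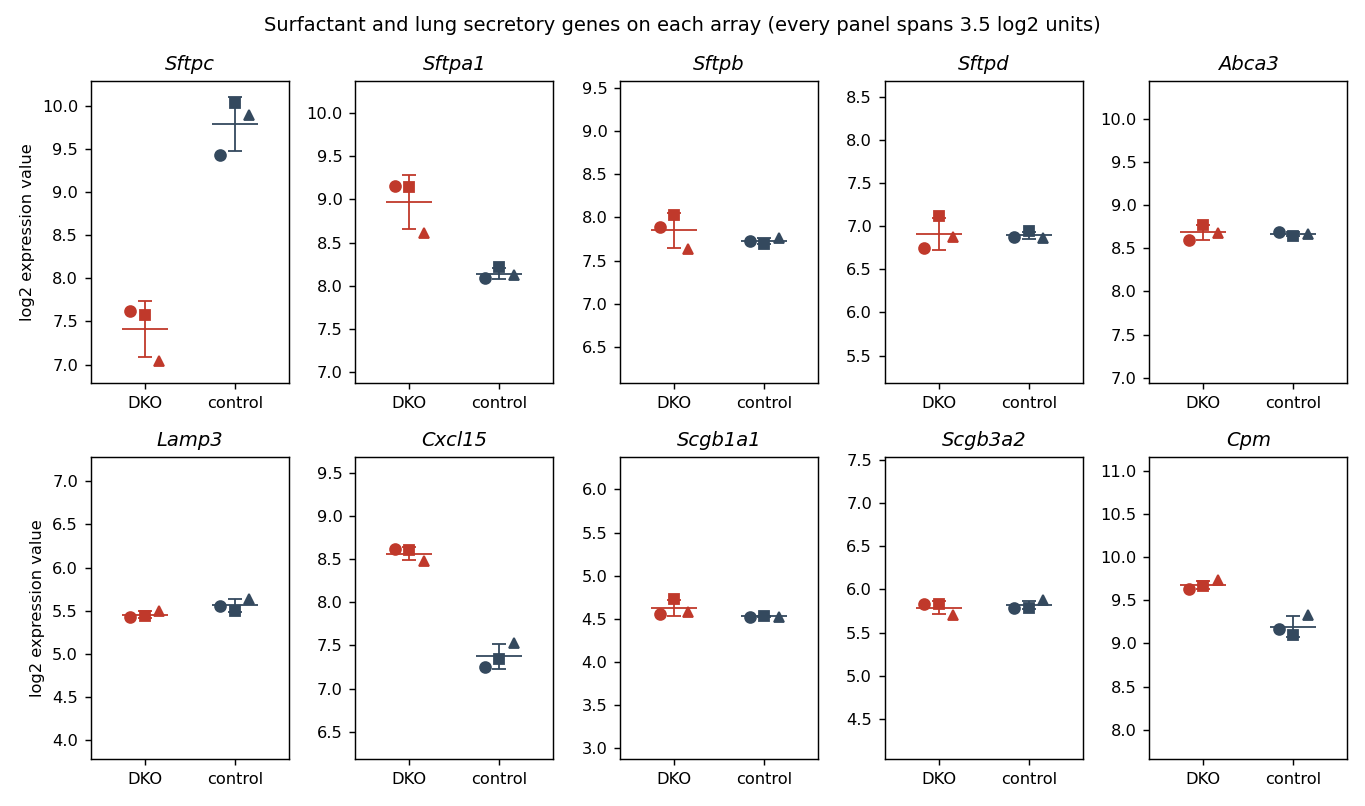
Deposited log2 expression value (vertical axis) of each of the 10 genes on the 3 DKO arrays (left, red) and the 3 control arrays (right, blue). Circles, squares and triangles are replicates 1, 2 and 3, horizontal lines are means and bars are SD (n = 3). Every panel spans the same log2 range. Sftpc differs by -2.37, Cxcl15, Sftpa1 and Cpm by 1.19, 0.83 and 0.48, and the remaining genes lie close together.

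Sftpc encodes surfactant protein C, a small membrane-spanning peptide made from a larger precursor. Its log2 values were 7.62, 7.57 and 7.04 in DKO buds, against 9.43, 10.03 and 9.89 in control buds. All DKO values lay below all control values, and the highest DKO value was below the lowest control value by more than the spread within either group. The mean was 7.41 ± 0.32 in DKO and 9.78 ± 0.31 in control (SD, n = 3 each), a difference of -2.37 (SE 0.18), or 5.18-fold lower. Only 1 of the 19938 genes had a larger fall. Within each group Sftpc was among the most variable genes, as its SD exceeded that of 99.4% of genes in DKO and 99.9% in control. In DKO buds its mean was still above that of 97.5% of the nose receptor genes. Leaving out each array in turn gave differences between -2.55 and -2.19.

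Sftpa1 encodes surfactant protein A, the most abundant collectin of the adult lung surface. Its log2 values were 9.16, 9.15 and 8.61 in DKO buds, against 8.09, 8.22 and 8.12 in control buds. Every DKO value was above every control value, with DKO 3 nearest to them. The mean was 8.97 ± 0.31 in DKO and 8.14 ± 0.07 in control (SD, n = 3 each), a difference of 0.83 (SE 0.13), or 1.78-fold higher. Only 11 genes had a larger rise. The SD of Sftpa1 was 4.67 times as large in DKO as in control, and the difference ran from 0.74 to 1.01 as each array was left out.

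Sftpa1 and Sftpc thus differed in opposite directions on the same arrays. The log2 ratio of Sftpa1 to Sftpc was 1.53, 1.58 and 1.57 in DKO, against -1.35, -1.81 and -1.77 in control. The level of this ratio depends on the affinity of the probes, so only its change is read, which was 3.20 on the log2 scale. The ratio hardly varied among the DKO arrays (SD 0.02) but did among the control arrays (SD 0.26). Both genes were lowest on DKO 3 among the DKO arrays, by a like amount. The deviation of DKO 3 from the DKO mean was -0.37 for Sftpc and -0.36 for Sftpa1.

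The other surfactant proteins showed no clear difference. Sftpb, which encodes the surfactant protein B needed to form lamellar bodies and the surface film, had values of 7.89, 8.02 and 7.63 in DKO against 7.72, 7.70 and 7.77 in control. Its groups overlapped, with DKO 3 below all controls and the other two DKO arrays above them (difference 0.12, SE 0.09). Sftpd, which encodes the collectin surfactant protein D, had values of 6.75, 7.11 and 6.88 in DKO against 6.88, 6.94 and 6.86 in control, again overlapping (difference 0.02, SE 0.09). Sftpd is the gene after Mbl1 next to Sftpa1 on chromosome 14, yet the log2 ratio of Sftpa1 to Sftpd was higher by 0.81 in DKO. Both Sftpb and Sftpd scattered more widely in DKO (SD 0.20 and 0.19) than in control (SD 0.04 for each).

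The lamellar body genes were level between the groups. Abca3 encodes the transporter that loads phospholipid into lamellar bodies, and its values were 8.60, 8.77 and 8.68 in DKO against 8.69, 8.64 and 8.66 in control (difference 0.02, SE 0.06). Lamp3 encodes a glycoprotein of the lamellar body membrane, and its values were 5.43, 5.44 and 5.50 in DKO against 5.56, 5.49 and 5.64 in control (difference -0.11, SE 0.06). The groups overlapped for both genes. The control mean of Lamp3 exceeded that of 65.9% of the nose receptor genes, which places it in the range of low signal, where a fold change is understated.

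Cxcl15, also called lungkine, encodes a neutrophil-attracting chemokine secreted by lung epithelium in mice. Its log2 values were 8.62, 8.60 and 8.47 in DKO buds, against 7.25, 7.34 and 7.53 in control buds. All DKO values were well above all control values. The mean was 8.56 ± 0.08 in DKO and 7.38 ± 0.14 in control (SD, n = 3 each), a difference of 1.19 (SE 0.08), or 2.28-fold higher, and only 2 genes had a larger rise. The difference ran from 1.13 to 1.27 as each array was left out.

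Cpm encodes carboxypeptidase M, a membrane-anchored enzyme that trims basic residues from peptides and that marks distal lung epithelium. Its log2 values were 9.63, 9.67 and 9.73 in DKO buds, against 9.17, 9.09 and 9.32 in control buds. The groups did not overlap. The mean was 9.68 ± 0.05 in DKO and 9.19 ± 0.12 in control (SD, n = 3 each), a difference of 0.48 (SE 0.07), or 1.40-fold higher, and 79 genes had a larger rise.

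The secretoglobins were near the bottom of the signal range in both groups. Scgb1a1, the club cell secretory protein, had values of 4.56, 4.73 and 4.58 in DKO against 4.53, 4.54 and 4.52 in control. These values did not overlap, but the difference was 0.09 (SE 0.06), and 77.3% of the nose receptor genes were brighter in DKO and 80.9% in control. Scgb3a2, an early airway secretoglobin, had values of 5.83, 5.83 and 5.70 in DKO against 5.79, 5.79 and 5.87 in control, which overlapped (difference -0.03, SE 0.06). Its control mean exceeded that of 73.8% of the nose receptors. With Lamp3 and Sftpd these made 4 of 10 genes whose group means both lay below the 95th percentile of those receptors, so absence of a difference in these 4 genes is weakly measured.

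The DKO samples differed among themselves in several of these genes. Over all genes, the SD of deviations among the DKO arrays was smallest on DKO 3 (0.0705) and largest on DKO 2 (0.105). The share of all genes lowest on DKO 3 was not counted. On DKO 3, Sftpc, Sftpa1, Sftpb, Cxcl15 and Scgb3a2 had their lowest DKO value. Its deviations from the DKO mean were -0.37 for Sftpc, -0.36 for Sftpa1, -0.21 for Sftpb, -0.09 for Cxcl15 and -0.09 for Scgb3a2. Lamp3 and Cpm had their highest DKO value on DKO 3, with deviations of 0.04 and 0.05. Sftpd, Abca3 and Scgb1a1 peaked on DKO 2 instead, with deviations of 0.20, 0.09 and 0.11. The mean of the epithelial markers was 8.71, 8.86 and 8.86 on DKO 1, 2 and 3, so it was not lowest on DKO 3. In all, 7 of the 10 genes had a larger SD in DKO than in control, as did 67.8% of all genes.

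Windows from the RefSeq promoter table (build GRCm38.p6) were searched for 6 of the 10 genes. Of these, 4 are shown: the 3 that were higher in DKO, and Sftpb as a surfactant gene that did not separate. Each line gives the 250 bases before the annotated start, 5′ to 3′ on the strand of the gene. Capitals mark matches on either strand to TCAAG, the core of NKX2-1 sites, to TGTTTNC, a forkhead motif, or to TATAAA, the TATA box, and TTGCNNAA, a C/EBP motif, was searched as well. The motifs do not overlap in these windows. The windows are chr14:41131538-41131787, chr5:90794284-90794533, chr10:117629250-117629499 and chr6:72304360-72304609, all on the plus strand.
Sftpa1: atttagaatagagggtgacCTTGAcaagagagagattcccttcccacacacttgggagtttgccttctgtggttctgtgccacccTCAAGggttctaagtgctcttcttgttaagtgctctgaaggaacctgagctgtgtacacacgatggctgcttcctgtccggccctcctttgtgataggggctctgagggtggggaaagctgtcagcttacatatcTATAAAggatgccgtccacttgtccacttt
Cxcl15: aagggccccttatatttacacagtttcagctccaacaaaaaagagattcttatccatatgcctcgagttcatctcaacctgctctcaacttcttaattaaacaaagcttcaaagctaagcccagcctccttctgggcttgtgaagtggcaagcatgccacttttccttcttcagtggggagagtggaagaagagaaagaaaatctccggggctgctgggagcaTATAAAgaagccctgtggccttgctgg
Cpm: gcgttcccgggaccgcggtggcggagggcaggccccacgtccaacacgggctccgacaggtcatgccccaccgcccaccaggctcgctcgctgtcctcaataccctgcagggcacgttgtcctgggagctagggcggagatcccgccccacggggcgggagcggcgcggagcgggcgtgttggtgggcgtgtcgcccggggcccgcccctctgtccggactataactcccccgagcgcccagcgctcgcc
Sftpb: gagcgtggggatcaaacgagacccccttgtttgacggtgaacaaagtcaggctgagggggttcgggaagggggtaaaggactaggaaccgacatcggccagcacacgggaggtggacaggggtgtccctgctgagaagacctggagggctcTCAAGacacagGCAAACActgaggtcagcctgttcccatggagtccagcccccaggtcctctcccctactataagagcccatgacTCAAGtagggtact
Sftpa1 and Sftpb each held 2 matches to TCAAG, at 231 and 165 bases before the start in Sftpa1 and at 99 and 14 bases in Sftpb (positions of the first base). Such a match occurs in 35.9% of the 32851 promoter windows in the table. Cxcl15 and Cpm held none. A TATA box lay 30 bases before the start in Sftpa1 and 27 bases before it in Cxcl15, against 12.4% of windows with a match anywhere. A forkhead match lay 88 bases before the start in Sftpb (17.8% of windows). No C/EBP match was found in these 4 windows (9.56% of all windows hold one). GC content was 74.4% in Cpm, 46.4% in Cxcl15, 58.4% in Sftpb and 50% in Sftpa1, with a mean of 53.2% over the table. The genes higher in DKO thus shared none of these 4 motifs across all 3 windows, and a match is a description of letters only.

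Setting each gene against the epithelial markers of the same array subtracted the same marker difference (-0.38) from every gene. Cxcl15, Sftpa1 and Cpm therefore stayed high by construction, and Sftpc, whose fall was larger, stayed low. Of 24 measured epithelial markers 0 rose and 12 fell (median -0.33), and their summed linear level was 12675 to 14408 in DKO against 18128 to 19238 in control. The largest falls were in the protease gene Prss8 (-0.91, SE 0.06), the trafficking gene Rab25 (-0.89, SE 0.06), the keratin gene Krt18 (-0.86, SE 0.05) and Foxa1. Their mean log2 value was 8.81 ± 0.09 in DKO and 9.19 ± 0.03 in control (SD, n = 3 each), 1.30-fold lower in DKO. Relative to that mean, Sftpc was -1.09, -1.29 and -1.82 in DKO against 0.28, 0.81 and 0.70 in control, a difference of -2.00. The corresponding difference was 1.57 for Cxcl15, 1.21 for Sftpa1 and 0.86 for Cpm. By the same construction the other 6 genes, which hardly differed themselves, moved up relative to the markers by 0.27 to 0.50. The part of epithelial content in these differences was not tested. The ratio does not measure it, since the markers did not move alike (median -0.33, but -0.91 for Prss8).

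**Figure D2:**
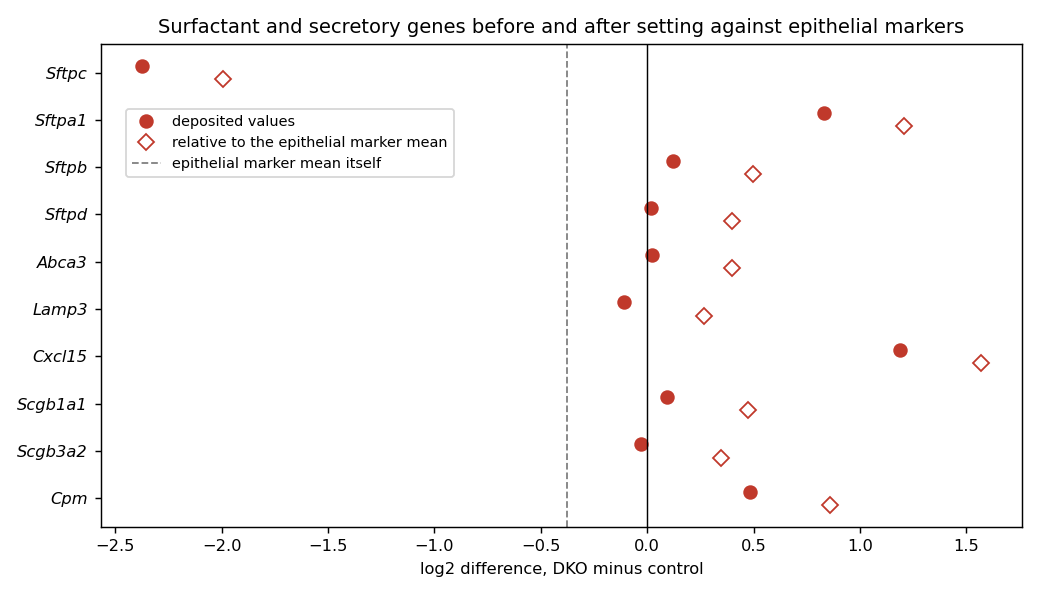
Log2 difference, DKO minus control (horizontal axis), of each gene in the deposited values (filled circles) and after subtracting the mean of 24 epithelial markers on the same array (open diamonds). The dashed line is the difference of that marker mean, -0.38. Relative to the markers Sftpc stands at -2.00, and the open diamonds of the other genes lie to the right of 0.

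Transcription factors and signals that act on surfactant genes included more falls than rises. Of 41 measured regulators, 1 rose and 7 fell (median -0.06), against 2.41% of all genes called and a median of 0.00. Sox2, which patterns the conducting airways, was lower by 2.26-fold (-1.17, SE 0.09, adjusted p = 0.000545). The neuregulin receptor gene Erbb3 fell 1.85-fold (-0.88, SE 0.09, adjusted p = 0.00199). Foxa1 and Foxa2, forkhead factors that bind surfactant promoters, fell by 0.69 (SE 0.07, adjusted p = 0.00184) and by 0.32 (SE 0.06, adjusted p = 0.0274). Both are also epithelial markers counted above. The lists share such genes, so their counts are not independent. Etv5, an effector of FGF signalling in the bud tips that is needed for Sftpc expression in type 2 cells, fell by 0.34 (SE 0.07, adjusted p = 0.0366). The mesenchymal ligand Fgf10 rose 2.07-fold (1.05, SE 0.12, adjusted p = 0.00236), while its epithelial receptor gene Fgfr2 fell by 0.58 (SE 0.06, adjusted p = 0.00211). Of 17 mesenchymal markers 1 rose and 2 fell (summed level 36675 to 37737 in DKO against 37782 to 38665 in control), and of 9 smooth muscle markers 1 rose and 6 fell (6972 to 8106 in DKO against 9391 to 10322 in control). Of 9 mesothelial markers 3 rose and 0 fell, namely Calb2 (1.28), Upk1b (0.47) and Gpm6a (0.42), with a summed level of 6639 to 6889 in DKO against 5958 to 6231 in control. Of 10 cardiac markers 1 rose and 0 fell, namely Myl7 (0.80), with a summed level of 4239 to 5108 in DKO against 3572 to 3865 in control. In limma 0 of 12 endothelial and 0 of 13 leukocyte markers passed, against 3 and 6 with an unadjusted p under 0.05. Their median differences were 0.11 and -0.08. Their summed levels were 10937.5 to 12270.9 and 3436 to 3671 in DKO, against 10455.5 to 10689.9 and 3800 to 3937 in control. The part of these cells in the changes of the regulators was not tested.

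Several regulators linked to surfactant genes or to the bud tips did not pass the threshold. Nkx2-1, the homeobox factor that binds the promoters of surfactant genes, had values of 10.20, 10.44 and 10.44 in DKO against 10.53, 10.60 and 10.53 in control. These did not overlap, but the difference of -0.19 (SE 0.07, interval -0.36 to -0.03) did not pass (adjusted p = 0.299). Gata6 (0.20, adjusted p = 0.136), Cebpa (0.14, adjusted p = 0.502), the distal progenitor factor Sox9 (-0.15, adjusted p = 0.281) and Id2, a helix-loop-helix protein of the bud tips (0.06, adjusted p = 0.816), did not pass either. Gata6 was higher and Sox9 lower in DKO without overlap, as 18.8% of all genes were in either direction, while Cebpa and Id2 overlapped. With an intensity trend in limma, Gata6 passed (adjusted p = 0.0357). Foxa2 lost its call without DKO 1 or any control array (adjusted p = 0.0604 to 0.141) and with replicate number as a block (0.0695). Etv5 lost its call without DKO 1, DKO 3 or any control array (0.0646 to 0.171).

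Genes that make surfactant lipid were not called. Of 33 measured genes for phospholipid and fatty acid synthesis, 0 passed in limma, against 5 with an unadjusted p under 0.05, and their median difference was -0.03. The largest values were -0.23 for the lipid transfer gene Stard10 (SE 0.06, adjusted p = 0.0983) and -0.21 for the desaturase gene Scd1 (SE 0.08, adjusted p = 0.306). Without DKO 2 the count was 2, and Stard10 then passed (adjusted p = 0.0240). Of 32 measured genes for processing, sorting and secretion of surfactant proteins, 0 rose and 1 fell (median 0.00). That gene was Wwp2, a ubiquitin ligase of the NEDD4 family, at -0.43 (SE 0.06, adjusted p = 0.00640).

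Among 29 other measured genes of the alveolar epithelium, 1 rose and 5 fell (median -0.08). Cldn18, a claudin of alveolar tight junctions, was 7.47, 7.62 and 7.37 in DKO against 9.18, 9.32 and 9.28 in control, and fell 3.42-fold (-1.77, SE 0.07, adjusted p = 1.11e-05). The membrane mucin gene Muc1 fell 1.96-fold (-0.97, SE 0.08, adjusted p = 0.000661). Fgfr2 and Etv5, which are on this list too, fell as given above and were already counted among the regulators. Dram1, a regulator of autophagy, rose 1.80-fold (0.85, SE 0.09, adjusted p = 0.00193). The count of 6 was 4 without DKO 3, control 1 or control 2, and 9 without DKO 2. Among 29 other measured airway genes, 1 rose and 4 fell (median 0.02). Aldh1a1, a retinal dehydrogenase, fell by 0.78 (SE 0.08, adjusted p = 0.00211). The secreted protein gene Bpifb1 fell by 0.56 (SE 0.07, adjusted p = 0.00330) and the claudin gene Cldn10 by 0.55 (SE 0.08, adjusted p = 0.00803, and 0.0532 without control 2). Chga, the chromogranin of neuroendocrine cells, rose by 0.44 (SE 0.06, adjusted p = 0.00796). Of these airway genes, 17 of 29 lay below the 95th percentile of the nose receptors.

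**Figure D3:**
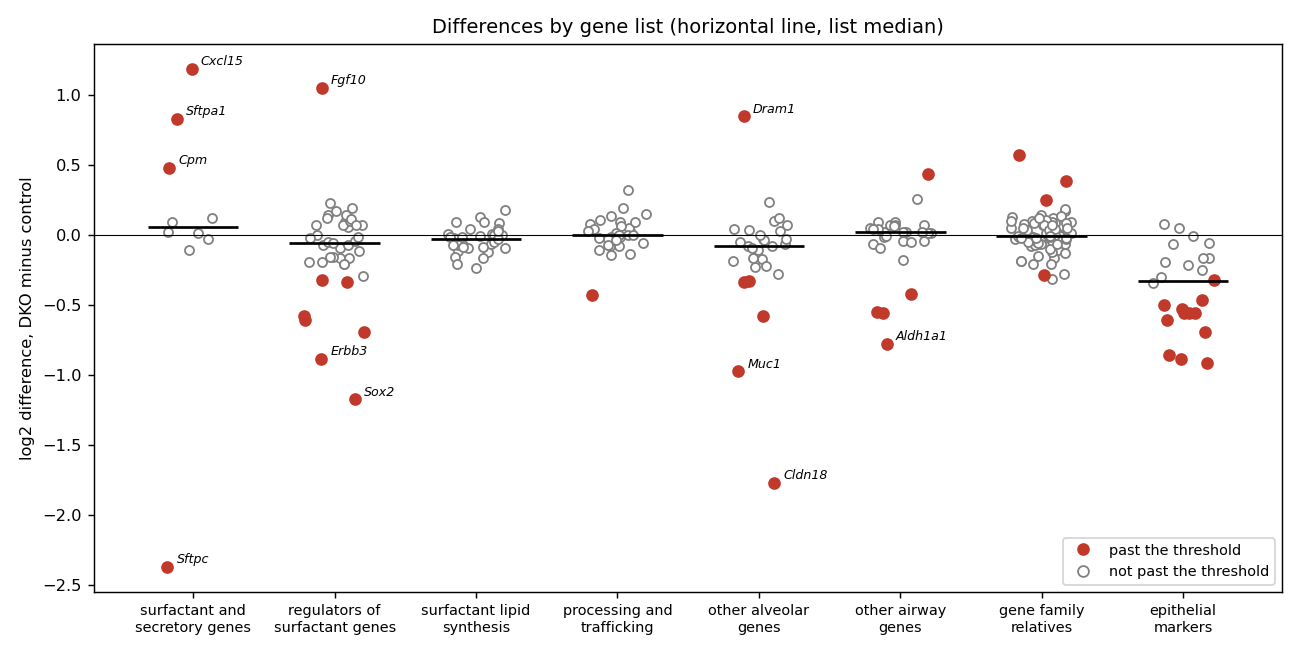
Log2 difference, DKO minus control (vertical axis), of every measured gene in the groups named on the horizontal axis (points, spread sideways for legibility). Filled points passed an adjusted p under 0.05 in limma over all genes, open points did not, and horizontal lines are list medians. Sftpc lies lowest of all points shown at -2.37, and among the groups drawn the epithelial markers have the lowest median at -0.33.

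Relatives of the surfactant and secretory genes in the same gene families mostly did not pass. Of 75 measured relatives, 3 rose and 1 fell (median 0.00). No call was made among 5 other collectins, 15 other ABCA transporters, 4 genes of the LAMP family, 7 other secretoglobins and 10 genes with a BRICHOS or saposin domain, where limma gave 0, 3, 0, 0 and 1 genes with an unadjusted p under 0.05. The largest values there were 0.12 for the collectin gene Colec10, -0.18 for Abca2, 0.08 for Lamp1, 0.12 for Scgb2b24 and -0.21 for the BRICHOS gene Tnmd. Among 21 CXC chemokines and receptors, Ppbp and Pf4 rose. Among 13 carboxypeptidases related to Cpm, Aebp1 rose by 0.25 (SE 0.05, adjusted p = 0.0398) and Cpe fell by 0.29 (SE 0.05, adjusted p = 0.0305). Both of these calls were lost with the replicate block (adjusted p = 0.0948 for Aebp1 and 0.0763 for Cpe), and the count of 4 relatives was then 2. Leaving out any array but DKO 2 gave counts of 1 or 2.

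Genes next to Cxcl15 and Sftpc on the chromosome included further calls. Among the 3 nearest measured genes on each side, 2 of 6 passed for Cxcl15 (chromosome 5) and 1 of 6 for Sftpc (chromosome 14). For Scgb3a2 (chromosome 18) it was 1 of 6, namely Jakmip2, which fell by 0.36 (SE 0.07, adjusted p = 0.0346, and 0.0898 to 0.158 without DKO 1 or any control array). None passed for Sftpb, Abca3, Lamp3, Scgb1a1 and Cpm (0 of 6 each) or for Sftpa1 and Sftpd (0 of 5 each), against 2.41% of all genes. Sftpa1 and Sftpd are among the nearest genes of each other and were left out of these counts. Cpm lies beside Mdm2, which differed by 0.00 (SE 0.05, adjusted p = 0.994), and on its other side are Cpsf6 (0.04) and then the lysozyme genes Lyz1 (-0.08) and Lyz2 (-0.18), none of which passed.

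The neighbour of Sftpc that fell was Lgi3, a secreted leucine-rich repeat protein gene. Its values were 8.70, 8.47 and 8.46 in DKO against 9.12, 9.09 and 8.96 in control, and the groups did not overlap. The difference was -0.51 (SE 0.08, adjusted p = 0.0101, but 0.0623 without control 1 and 0.0621 without control 2). On the other side of Sftpc, Bmp1, a protease gene of collagen maturation, differed by -0.13 (SE 0.06, adjusted p = 0.369). Phyhip, the next gene, had values of 7.57, 7.94 and 7.89 in DKO against 7.52, 7.47 and 7.48 in control, higher without overlap but not past the threshold (0.31, SE 0.09, adjusted p = 0.153).

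Cxcl15 lies in a cluster of chemokine genes. Ppbp had values of 11.21, 11.39 and 11.42 in DKO against 10.67, 10.81 and 10.84 in control, a rise of 0.57 (SE 0.07, adjusted p = 0.00513). Pf4 had values of 9.96, 10.06 and 9.93 in DKO against 9.60, 9.56 and 9.64 in control, a rise of 0.38 (SE 0.05, adjusted p = 0.00780, and 0.0529 without control 2). Both encode platelet chemokines made by megakaryocytes. Cxcl3 (-0.04) and Cxcl1 (-0.01), the nearest measured gene on either side of Cxcl15, did not pass, nor did Cxcl2 (-0.02) beyond Cxcl1. A wider window of 10 measured genes on each side, added after the values were seen, held 3 rises and 0 falls for Cxcl15. For Scgb3a2 that window held 0 rises and 2 falls, the second being Ppp2r2b, a phosphatase subunit gene, at -0.41 (SE 0.06, adjusted p = 0.00771), and it added no call for the other genes. The further rise near Cxcl15 was Alb, the albumin gene, at 0.96 (SE 0.18, adjusted p = 0.0294, and 0.0516 to 0.136 without DKO 1 or any control array). Markers of blood and liver are given beside these values. Of 7 erythroid genes 0 passed in limma, against 2 with an unadjusted p under 0.05, and their summed level was 31673 to 31842 in DKO against 28801 to 31228 in control. Of 14 genes of liver, stomach, gut and thyroid 2 rose and 0 fell, with a summed level, Alb included, of 2792 to 3181 in DKO against 2393 to 2480 in control. The 2 were Alb itself and Rfx6, a factor of gut and pancreatic endocrine cells (1.03, SE 0.15, adjusted p = 0.00813), while the liver genes Afp (0.53, adjusted p = 0.117), Apoa1 (0.12, 0.708), Ttr (0.08, 0.672) and Hnf4a (-0.08, 0.831) did not pass. The part of these cells in the rises was not tested.

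**Figure D4:**
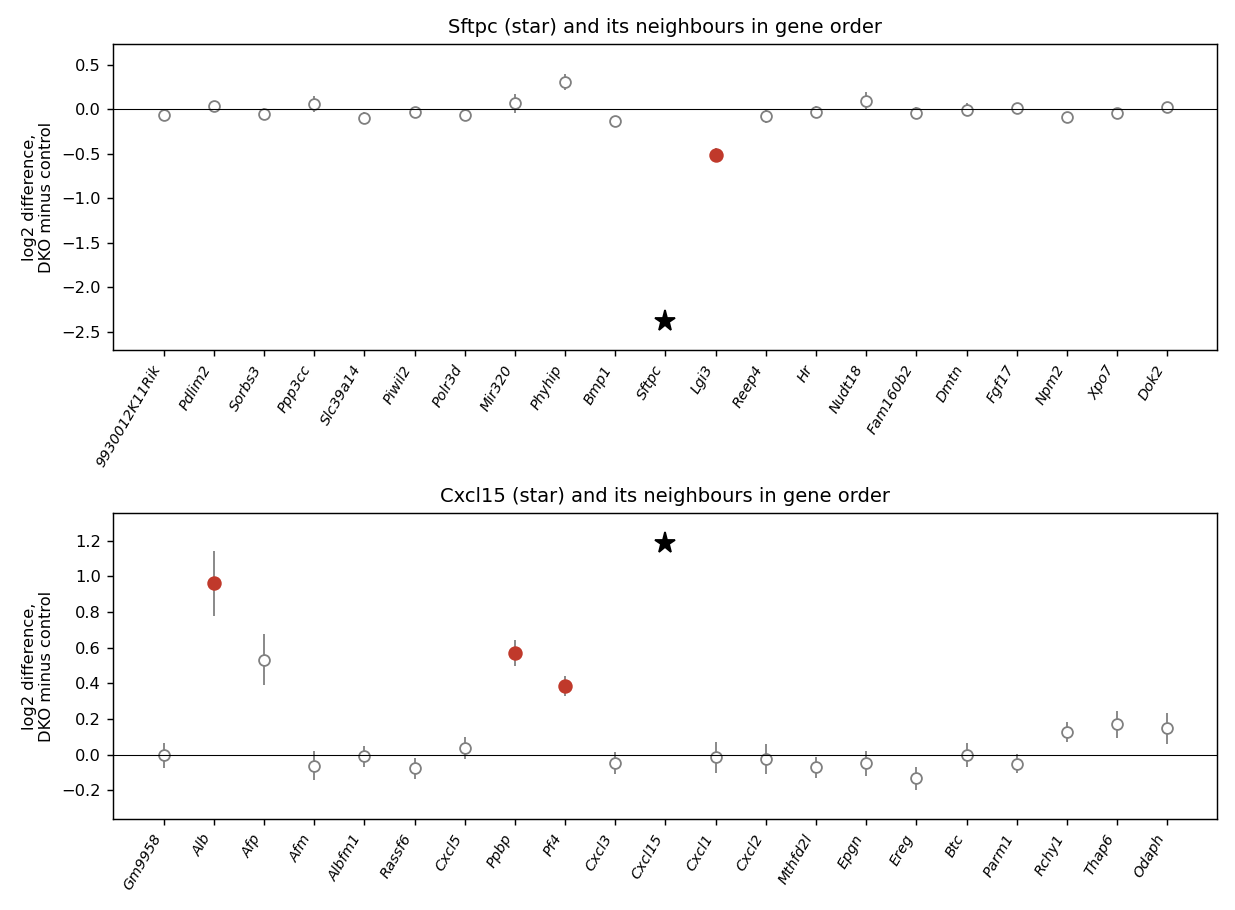
Log2 difference, DKO minus control (vertical axis), of Sftpc (top) and Cxcl15 (bottom), drawn as stars, and of the 10 nearest measured genes on each side in chromosome order (horizontal axis, not to scale). Bars are SE from limma, and filled points passed an adjusted p under 0.05. Lgi3 beside Sftpc stands at -0.51, and Ppbp, Pf4 and Alb near Cxcl15 stand at 0.57, 0.38 and 0.96.

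For the 4 genes that differed by at least 0.4, the genes with the most similar profile over the 6 arrays were sought among 785 other genes with an SD of at least 0.2. Because the arrays form 2 groups, a high Pearson r mainly reflects a shared difference between the groups. Many other candidates also had a high r, so the genes named are only the top of a longer list. For Sftpc the closest were Clu, which encodes the chaperone clusterin (r = 0.997, difference -0.42), Arhgap8 (r = 0.994, -0.49) and Itih2 (r = 0.994, -0.70). For Sftpa1 they were the vitamin D receptor gene Vdr (r = 0.995, 0.41), Sema3d (r = 0.990, 0.56) and Lpar3 (r = 0.988, 0.33), of which Lpar3 did not pass the threshold (adjusted p = 0.0944). For Cxcl15 they were C1qtnf7 (r = 0.997, 0.56), Sema3a (r = 0.995, 0.47) and Cnksr2 (r = 0.991, 0.44). For Cpm they were Dgkk (r = 0.996, 0.61), Mtres1 (r = 0.994, 0.40) and Frg1 (r = 0.990, 0.46). Calls were lost for Vdr without DKO 1 or any control array (adjusted p = 0.0759 to 0.118), for Sema3d without control 2 (0.0510) and for Mtres1 without DKO 3, control 1 or control 2 (0.0823 to 0.117).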

How the data were processed

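Total RNA of 6 whole lung bud samples (3 DKO, 3 control) was hybridised to Affymetrix MoGene 1.1 ST arrays, per the labels. The authors deposited 1 log2 value for each of 35556 probe sets per array. The tools listed by the submitters' processing notes are oligo, RMA and limma, without settings or build. Base 2 was taken from RMA and the value range (3.42 to 14.27). RMA makes the arrays alike, so a change in total RNA per cell cannot be seen, and the number of arrays limits the precision.

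Probe sets with exactly 1 annotated gene (21789, while 1621 had several and 12146 none) were used. Names were checked against RefSeq (19856 genes matched, 82 not), which changed 0 of them. The probe set with the highest mean was kept per gene. All 19938 genes were fitted together, two-sided, by group alone (R 4.3.3, limma 3.58.1: lmFit, then eBayes), with Benjamini-Hochberg adjustment, a threshold of 0.05 and 95% intervals. On simulated data with 200 changed genes per run, the fit recovered 48% of 1.25-fold changes and 85.2% of 1.5-fold changes. Of its calls there, 3.16% were false. A gene that did not pass may therefore still differ by such a small amount. Because separate embryos are not stated, p-values measure only sample spread, which may be technical.

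The genes described and the lists were chosen with earlier results of these data known. Genes named beyond the 10 are Hdac1, Hdac2 and a set of lung regulators (Nkx2-1, Foxa1, Foxa2, Gata6, Cebpa, Etv5, Sox2, Sox9, Id2); up to 4 genes past the threshold with the largest change in each list, or the 2 largest where none passed; the 3 nearest measured genes on each side; and the 3 closest profiles. Apoa1, Ttr, Hnf4a, Afp and Ppp2r2b are named outside that rule, after their values were seen. Alternatives were the replicate block, eBayes trend and robust settings, array weights, a second quantile normalization, median centring, removal of the dimmest 30%, all probe sets, and each array left out.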

Additional observations from a re-analysis of the deposited data

How the results depend on the processing

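The differences of all 10 genes moved by less than 1 SD between replicates under a second quantile normalization and median centring. The deposited values were already normalized, with array medians of 7.87 to 7.89, so these steps could change little. The replicate block cannot change a difference of means in this balanced design, so it says nothing on the size of the differences. Left-out arrays gave -2.55 to -2.19 for Sftpc, 1.13 to 1.27 for Cxcl15, 0.74 to 1.01 for Sftpa1 and 0.43 to 0.55 for Cpm. No further probe set existed, so the planned change of probe set could not be run. With the median of the epithelial markers in place of their mean, the relative differences became 0.29 for Sftpd, 0.29 for Abca3, 0.16 for Lamp3, 0.37 for Scgb1a1 and 0.75 for Cpm, each more than 1 SD from the value with the mean. The count of 481 genes past the threshold was 725 with an intensity trend, 2003 with array weights and 406 with the replicate block, and 197 to 811 as each array was left out (197 without control 2, 215 without control 1 or control 3, 317 without DKO 3 and 811 without DKO 2). Lipid genes numbered 1 with the trend, 4 with array weights and 0 to 2 with arrays left out, and processing genes 2 and 3 under the first 2 of these. Array weights gave 12 alveolar genes and 12 family relatives, and removing the dimmest 30% left 3 airway genes. Relatives numbered 2 with the replicate block and 1 to 5 with arrays left out. Deviations of same-numbered samples correlated at -0.06, 0.05 and 0.16, so the numbers were not taken to pair the samples. Counting each named gene under each alternative once, 48 calls were lost, 8 were gained and 0 reversed. The low signal of Lamp3, Scgb1a1, Scgb3a2 and Sftpd limits what their differences can show.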
